A study of Mus musculus with 8 samples.

Results

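CHD4 sites at the ends of protein-coding genes that were called in every library are described here, from ChIP-seq of mouse atria. The peak lists of 4 ChIP libraries were merged wherever peaks overlapped by at least 1 bp. Of 121267 merged sites, 10657 were kept. They were chosen by calls in all 4 lists, by lying on an autosome within 1000 bp of an end of an mm10 protein-coding gene, and by having no control peak of 5000 bp or more. They are called gene-end sites below. Because the calls and the control peak widths chose them, the levels of these sites are a description and were not tested. Exact p-values are given below only for differences between places, whose sites were chosen by the same calls, and with 2 libraries a group none can pass a threshold of 0.05.

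The study compared 2 CHD4 ChIP libraries titled control atria with 2 titled TBX5 KO atria. All mice carried TBX5 flox/flox and were injected on postnatal day 2 with an AAV9 vector. The treatments named are AAV9:Nppa-Cre, which excises the floxed gene where the Nppa promoter is active, and AAV9:Nppa-EGFP, which does not. The sample titles are used here, but the genotype and treatment labels state the opposite of the titles: libraries titled control are labelled TBX5 KO and Nppa-Cre. If those labels hold, every direction below is exchanged. The treatment protocol in the labels also calls the mice given AAV9:Nppa-Cre a CHD4 KO, where the titles, genotype labels and design text name TBX5. Were CHD4 the gene deleted, a lower signal would be one of the ChIP target itself, and the peak lists do not settle this. The tissue was right and left atria, the cell type is given as mixed, and Cre driven by an atrial muscle promoter would leave the other cells of the atrium unrecombined. The labels do not say that replicates came from separate animals, so the spread between them may be technical. The age of the mice when the atria were taken is not given in the sources used here. Peaks numbered 99924 and 91520 in control libraries 1 and 2 and 61173 and 69557 in TBX5 KO libraries 1 and 2. Gene-end sites held 11.9%, 13.5%, 21.2% and 18.3% of the peaks of these lists, in the same order.

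CHD4 is the ATPase of the NuRD complex, which combines nucleosome remodelling with histone deacetylation and is found at promoters and enhancers of many cell types. TBX5 is a T-box transcription factor that atrial cardiomyocytes need for their gene programme. Many mammalian promoters lie in CpG islands, stretches rich in the CG dinucleotide that methylation has depleted elsewhere, and housekeeping genes usually have such promoters. ChIP-seq measures DNA bound by the protein and not transcription of the gene beside it. In mixed tissue, fewer cells with a bound site and less binding per cell cannot be told apart.

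Promoters of genes with and without a gene-end site are printed to show the sequence around their starts. Each covers 250 bases before to 50 bases after the RefSeq start, 300 bases in all, taken from RefSeq on GRCm38.p6 and written along the gene's own strand with CG dinucleotides in capitals. Hjurp (chr1:88277530-88277829, minus strand) and Phtf2 (chr5:20882075-20882374, minus strand) were among the 8 sites of highest mean rank, the percentile of a peak's −log10 p within its list averaged over the 4 lists. Ggps1 (chr13:14063439-14063738, minus strand) and Popdc2 (chr16:38361940-38362239, plus strand) were shown for their low ratio of TBX5 KO to control signal, and H4c6 (chr13:23551619-23551918, minus strand) and Tmem229b (chr12:79007228-79007527, minus strand) for their high one. Casp14 (chr10:78718244-78718543, minus strand) and Flg (chr3:93273296-93273595, plus strand), epidermal genes, had no CHD4 peak within 1000 bp of this start in any list.
Hjurp: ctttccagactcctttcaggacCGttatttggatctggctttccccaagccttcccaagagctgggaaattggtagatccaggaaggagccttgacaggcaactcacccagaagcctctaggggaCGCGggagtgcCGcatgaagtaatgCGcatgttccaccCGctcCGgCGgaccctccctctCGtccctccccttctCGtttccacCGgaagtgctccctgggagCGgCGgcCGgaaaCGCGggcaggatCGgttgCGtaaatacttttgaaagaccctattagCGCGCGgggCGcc
Phtf2: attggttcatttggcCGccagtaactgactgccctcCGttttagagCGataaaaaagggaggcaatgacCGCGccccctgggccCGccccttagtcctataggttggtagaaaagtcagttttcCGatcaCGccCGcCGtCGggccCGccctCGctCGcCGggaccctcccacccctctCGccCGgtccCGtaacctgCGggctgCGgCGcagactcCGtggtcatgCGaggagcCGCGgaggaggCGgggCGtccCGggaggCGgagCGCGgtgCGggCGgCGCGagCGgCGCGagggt
Ggps1: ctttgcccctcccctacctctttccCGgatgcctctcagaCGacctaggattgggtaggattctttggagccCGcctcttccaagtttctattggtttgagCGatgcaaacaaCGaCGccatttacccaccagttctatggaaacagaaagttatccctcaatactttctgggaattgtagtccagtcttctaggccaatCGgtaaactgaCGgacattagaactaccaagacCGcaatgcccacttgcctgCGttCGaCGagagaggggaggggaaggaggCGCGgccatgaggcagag
Popdc2: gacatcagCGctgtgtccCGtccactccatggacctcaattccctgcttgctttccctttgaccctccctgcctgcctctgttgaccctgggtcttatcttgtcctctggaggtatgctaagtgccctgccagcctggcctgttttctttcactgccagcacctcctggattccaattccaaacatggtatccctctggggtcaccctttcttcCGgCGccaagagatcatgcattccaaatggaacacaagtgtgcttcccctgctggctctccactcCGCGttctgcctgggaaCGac
H4c6: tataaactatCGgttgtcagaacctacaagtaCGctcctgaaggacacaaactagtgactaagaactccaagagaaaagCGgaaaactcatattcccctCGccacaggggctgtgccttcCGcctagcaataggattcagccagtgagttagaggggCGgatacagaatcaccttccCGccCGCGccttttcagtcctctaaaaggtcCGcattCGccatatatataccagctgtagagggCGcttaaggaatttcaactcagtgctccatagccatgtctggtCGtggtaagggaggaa
Tmem229b: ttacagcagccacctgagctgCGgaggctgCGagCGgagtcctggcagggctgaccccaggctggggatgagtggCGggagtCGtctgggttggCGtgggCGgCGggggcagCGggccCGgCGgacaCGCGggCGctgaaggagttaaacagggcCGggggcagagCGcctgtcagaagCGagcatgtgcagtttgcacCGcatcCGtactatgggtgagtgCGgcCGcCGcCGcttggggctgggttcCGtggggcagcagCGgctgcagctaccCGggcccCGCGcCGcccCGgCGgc
Casp14: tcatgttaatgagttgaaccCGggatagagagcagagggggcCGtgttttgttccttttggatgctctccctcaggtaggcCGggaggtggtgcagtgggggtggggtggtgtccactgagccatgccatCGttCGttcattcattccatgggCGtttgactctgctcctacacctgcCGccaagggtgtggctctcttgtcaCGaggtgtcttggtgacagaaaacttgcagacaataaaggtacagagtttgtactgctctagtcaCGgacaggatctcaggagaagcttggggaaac
Flg: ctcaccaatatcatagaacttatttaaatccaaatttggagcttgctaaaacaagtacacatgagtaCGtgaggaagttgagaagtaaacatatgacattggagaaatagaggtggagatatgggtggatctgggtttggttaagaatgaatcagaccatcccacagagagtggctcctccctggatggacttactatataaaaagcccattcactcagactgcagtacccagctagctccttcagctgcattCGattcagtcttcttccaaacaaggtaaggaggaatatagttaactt
The windows of Hjurp and Phtf2 held 22 and 38 CG dinucleotides, that of Ggps1 14, that of Popdc2 7, that of H4c6 13 and that of Tmem229b 31, against 9 in Casp14 and 2 in Flg.

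Popdc2 thus held fewer than Casp14, and single promoters do not separate the sets. Over the whole table of promoters the sets differed in their medians. Of 14811 protein-coding genes with a RefSeq promoter on these chromosomes, 7804 had a gene-end site, and their promoters held a median of 22 CG dinucleotides, against 14 over all promoters and 3 over the 5530 promoters with no peak within 1000 bp in any list. The observed over expected CpG ratio, which divides the CG count by the number that the C and G content alone would give, had a median of 0.793 at genes with a gene-end site, 0.486 at the 886 genes called in only 1 to 3 lists, and 0.191 at genes with no peak. Promoters were then binned by this ratio. A gene-end site was present at 6.59% of the 3279 promoters with a ratio up to 0.2, at 22.1% of those from 0.2 to 0.4, at 52.8% from 0.4 to 0.6, at 77.1% from 0.6 to 0.8 and at 85.9% of the 4419 promoters over 0.8. CpG content thus went with presence of the site across the whole range, while 206 promoters over 0.8 had no peak in any list. These shares are a description over genes, which are not replicates. The 7804 promoters leave out chromosome 18, and all 4 summits lay inside the promoter window at 4037 of them (51.7%). At the others the window does not hold every summit.

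**Figure D1:**
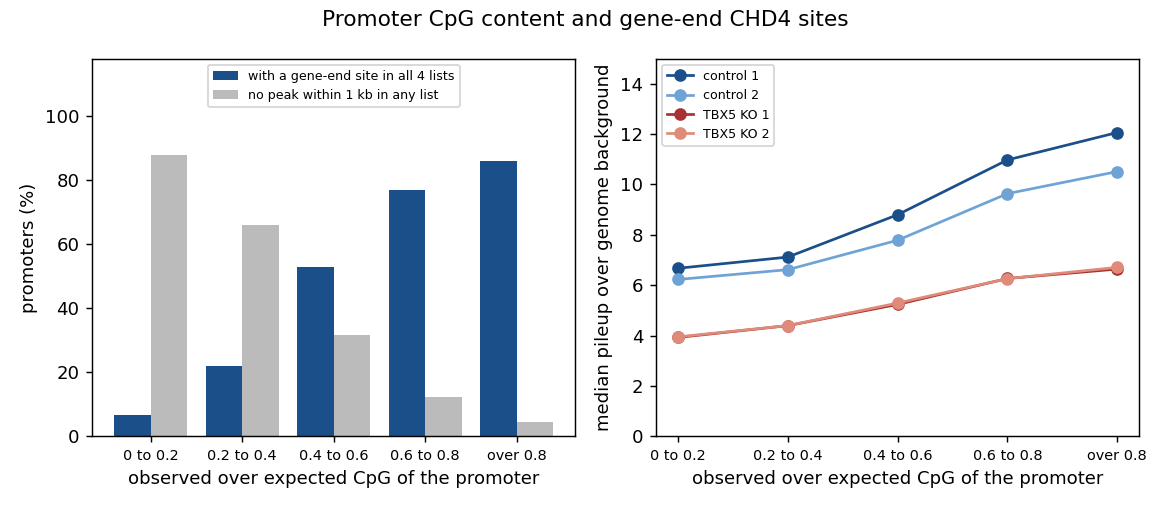
Left, the share of promoters (%) with a gene-end CHD4 site in all 4 lists and with no peak in any list, by bin of the promoter's observed over expected CpG ratio; right, the median pileup over genome background at the gene-end sites of each bin, with 1 line per library. The share with a site went from 6.59% to 85.9%, and both control lines lie above both TBX5 KO lines in every bin.

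Signal at gene-end sites also went with CpG content. The unit used is the pileup, the number of fragments stacked at the summit of a peak, divided by the genome-wide background of its library. In the lowest CpG bin the median was 6.67 in control 1, 6.23 in control 2, 3.93 in TBX5 KO 1 and 3.95 in TBX5 KO 2. In the highest bin it was 12.1, 10.5, 6.64 and 6.71. In both bins the lower control stood above the higher TBX5 KO library. When the gene-end sites with a promoter were split into quintiles by mean rank over the 4 lists, the median CpG ratio went from 0.646 in the weakest to 0.842 in the strongest, and the GC content from 58.3% to 65.3%. ChIP and library amplification can recover DNA unequally by GC content, and that part in these values was not tested.

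Short motifs were searched for on both strands of the same promoter windows. The GC box bound by SP and KLF factors (GGGCGG) was present in 68.6% of promoters with a gene-end site, 47.8% of all promoters and 16.1% of those with no peak. The ETS motif (CCGGAAG) was present in 20.1%, 12.4% and 2.93% in the same order, the NRF1 motif (GCATGCGC) in 6.19%, 3.80% and 0.814%, and the YY1 motif (AAGATGGC) in 4.95%, 3.27% and 1.28%. The first 3 of these contain CG, so their shares cannot be separated here from CpG content. The TATA box (TATAAA) went the other way, with 6.07%, 13.9% and 25.5%, as did the GATA motif (AGATAA), with 5.46%, 9.82% and 16.8%. Both are made mostly of A and T, and their shares cannot be separated here from base composition. The median GC content was 61.7% with a gene-end site and 47% with no peak. The CCAAT box (CCAAT) differed little between the sets, with 38.7%, 39.4% and 41.0%, but within gene-end sites it was present in 34.1% of the weakest quintile and 49.8% of the strongest. The T-box motif (AGGTGTGA) was present in 0.769% of promoters with a gene-end site and 1.24% of all promoters, and its shorter core (GGTGTG), which the longer motif contains, in 16.8% and 18.3%. A match is a run of letters and not a shown binding site.

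Most gene-end sites lay at gene starts. The direction of the gene was known from the promoter table for 8461 sites, and the nearest gene end was the start for 7401 of them (87.5%). By the starts within 1000 bp, 849 sites had starts on both strands, as at divergent promoters, 6750 had starts on 1 strand, 927 lay only at a far end, where transcription terminates, and 2131 touched genes whose direction was not in the table. A gene end lay inside the site itself at 9370 of the 10657, and 2060 sites served ends of more than 1 gene. In all they covered 11123 of 20665 autosomal protein-coding genes, 53.8%.

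Summits sat just upstream of the start. Among the 6750 sites with starts on 1 strand, the median summit lay 55, 62, 52 and 53 bp upstream of the nearest RefSeq start in control 1, control 2, TBX5 KO 1 and TBX5 KO 2, over the 6208 to 6231 summits within 1000 bp of a start. The share of summits within 100 bp of a start was 50.3% to 52.5% and within 250 bp 80.0% to 81.7%. The position was therefore nearly the same in all 4 libraries. Summits of different libraries lay close together as well. At gene-end sites, the median distance was 39 bp between the control libraries, 55 bp between the TBX5 KO libraries and 47 to 51 bp between libraries of different groups. The distance between groups lay within the range of distances inside groups. At gene-body sites, called in all 4 lists within genes but more than 1000 bp from either end, the same medians were 62 bp, 93 bp and 80 to 86 bp.

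**Figure D2:**
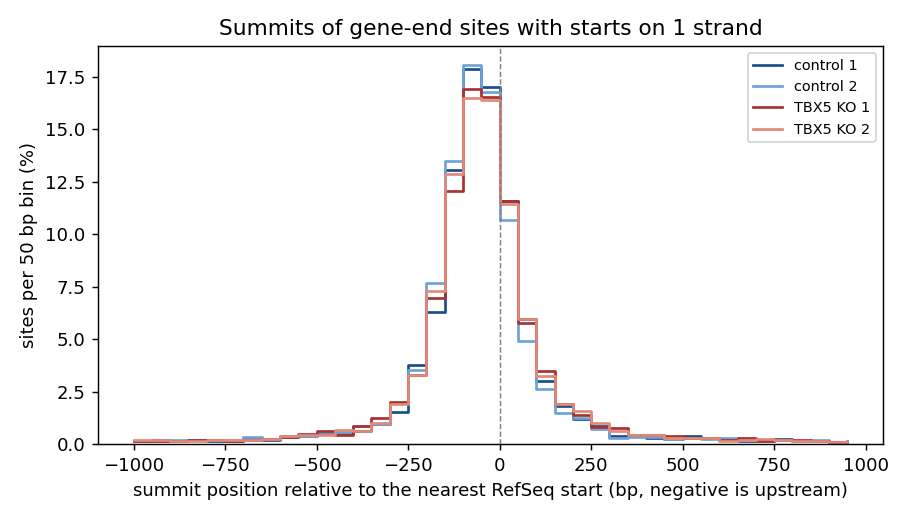
Distribution of summit positions around the nearest RefSeq start (x axis, bp along the gene, negative is upstream) at the gene-end sites with starts on 1 strand, as the share of sites per 50 bp bin (y axis, %), with 1 line per library. All 4 lines peak just upstream of the start, with medians 52 to 62 bp upstream.

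CHD4 signal at gene-end sites was lower in the TBX5 KO libraries. The median pileup over genome background was 9.79 and 8.57 in controls 1 and 2 and 5.61 and 5.67 in TBX5 KO 1 and 2, so the groups' medians did not overlap. The raw median pileups were 99, 88, 60 and 76 fragments, and the genome backgrounds they were divided by were 10.1, 10.3, 10.7 and 13.4. Per site, the log2 ratio of TBX5 KO to control had a median of -0.69 (SD 0.278 over 10657 sites), a level 0.618 times that of the controls, and 90% of sites lay between -1.08 and -0.17. The 4 pairings of a TBX5 KO with a control library gave medians of -0.79, -0.61, -0.78 and -0.60, while control 2 differed from control 1 by -0.17 and TBX5 KO 2 from TBX5 KO 1 by 0.0053. The difference between groups was thus larger than that between replicates, but 2 libraries against 2 cannot give an exact permutation p below 0.333.

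Most other sites were lower in the TBX5 KO libraries as well. Both TBX5 KO libraries were below both controls at 9834 gene-end sites (92.3%), and the background for this count, over all 36287 autosomal sites called in all 4 lists under the same width limit, was 87.6%. Both were above both controls at 28 gene-end sites (0.263%), where the background was 0.705%, and the groups overlapped at 795. The median log2 ratio over all such sites was -0.62, and the gene-end sites differed from it by -0.075. Without division by the genome background the medians were -0.46 at gene-end sites and -0.39 at all sites, and when each library was divided by its own median over all those sites, the difference of library medians at gene-end sites was -0.056. The size of the difference therefore depended on the scaling, and a difference in ChIP efficiency between libraries was not tested. The local background around gene-end sites, as a multiple of the genome background, was also higher in the controls, at 1.19 and 1.42 against 1.07 and 1.03. With the authors' fold over that local background, the median at gene-end sites was 7.25 and 5.60 in controls and 4.63 and 4.86 in TBX5 KO libraries, a difference of -0.43 on the log2 scale.

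Width and count of peaks moved as well. The median peak width at gene-end sites was 1549 and 1387 bp in the controls and 1038 and 1193 bp in the TBX5 KO libraries. More than 1 peak fell in the site at 10.5% and 13.7% of sites in the controls and at 17.6% and 16.3% in the TBX5 KO libraries. Both measures were separated between the groups, and so they were over all 36287 sites called in all 4 lists. Over those sites the median widths were 1172 and 1053 bp in the controls against 699 and 815 bp. More than 1 peak fell in 9.36% and 11.7% of them against 15.1% and 14.8%. Of the 17026 autosomal gene-end sites of any kind, 11467 were called in 4 lists, 1101 in 3, 1515 in 2 and 2943 in 1. Among the 1101 called in 3 lists, the missing list was TBX5 KO 1 at 649, TBX5 KO 2 at 276, control 2 at 136 and control 1 at 40.

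The classes of gene-end site differed in level. Sites with starts on both strands had the highest medians, 12.1 and 10.9 in the controls and 6.64 and 6.71 in the TBX5 KO libraries. Sites with starts on 1 strand followed with 10.4, 9.05, 5.99 and 6.04. Sites at far ends only had 5.34, 4.96, 3.56 and 3.43, close to gene-body sites with 5.24, 4.96, 3.37 and 3.36 and to sites outside genes with 5.44, 5.16, 3.56 and 3.43. In all 4 libraries the order of the first 3 classes was the same. The median log2 ratio of TBX5 KO to control was -0.79 at starts on both strands, -0.70 at starts on 1 strand and -0.54 at far ends only. Both TBX5 KO libraries were below both controls at 97.6%, 93.3% and 83.4% of these classes, beside the 87.6% of all sites, and both above at 0, 14 and 6 sites. Of the far-end sites, 41 had a RefSeq start of another transcript or gene within 1000 bp, and their median ratio was -0.64, against -0.54 at the other 886.

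**Figure D3:**
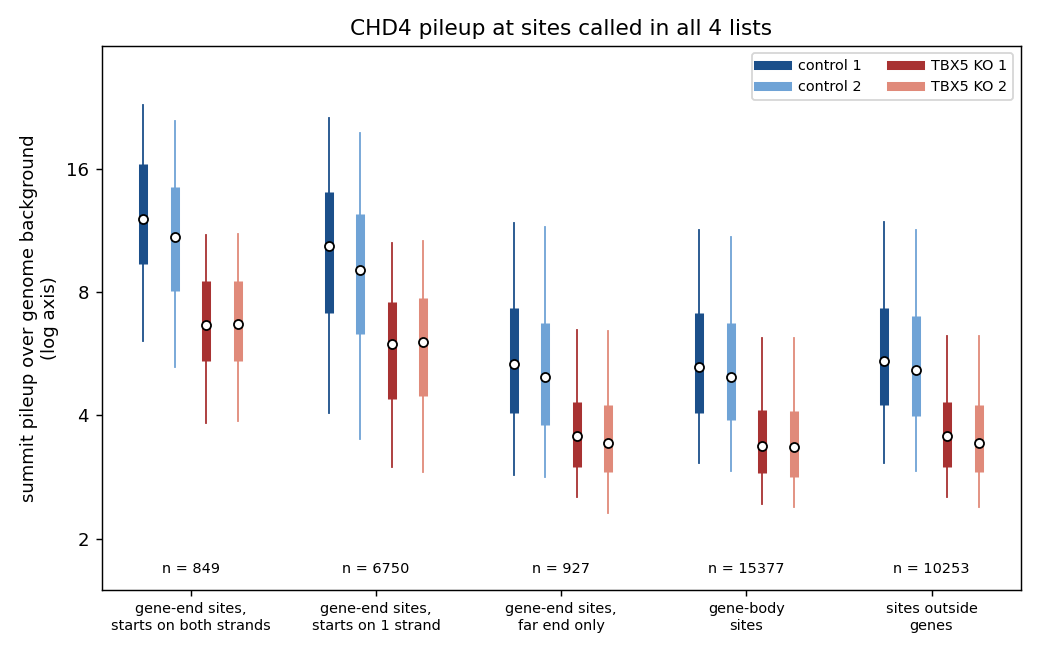
Summit pileup over genome background (log axis) at sites called in all 4 lists, for 3 classes of gene-end site, gene-body sites and sites outside genes, with 1 bar per library: points are medians, thick bars span the quartiles and thin lines the 5th to 95th percentile of sites. Sites with gene starts stand above the other places in every library, and the TBX5 KO medians lie below the control medians in every class.

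Whether the difference between groups was larger at gene-end sites than elsewhere depended on how sites were compared. Per library, the median log2 pileup over background at gene-end sites exceeded that at gene-body sites by 0.90 and 0.79 in the controls and by 0.74 and 0.76 in the TBX5 KO libraries, a difference between groups of -0.098. The two-sided exact permutation p was 0.333, which is the smallest that 2 against 2 allows and so carries no weight for or against a difference. Against sites outside genes the excess was 0.85, 0.73, 0.66 and 0.72, also a difference of -0.098 (exact p = 0.333). With peaks held to a −log10 q of at least 5, these differences were -0.021 and -0.051, and with lists shortened to equal length -0.031 and -0.028. Gene-end sites were stronger in the controls, and the ratio was lower at strong sites of every place. In deciles of the mean control rank, the median log2 ratio of gene-end sites went from -0.13 in the weakest decile to -0.89 in the strongest, that of gene-body sites from -0.18 to -0.98 and that of sites outside genes from -0.14 to -1.03. The control values that set these ranks are also the denominator of the ratio.

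At equal control rank the direction was reversed. In decile 7 the median log2 ratio was -0.61 at gene-end sites, -0.80 at gene-body sites and -0.81 outside genes. Averaged over the deciles, the excess of gene-end over gene-body sites was 0.12 and 0.027 in the controls and 0.21 and 0.22 in the TBX5 KO libraries, a difference of 0.14 (exact p = 0.333), and against sites outside genes the difference was 0.16 (exact p = 0.333). When sites were matched on 1 control library and the TBX5 KO libraries were compared with the other, the difference against gene-body sites was 0.17 and 0.076 for the 2 choices, and against sites outside genes 0.20 and 0.077. Matching on the rank in the TBX5 KO libraries left 0.018 and 0.036 (both exact p = 1). Leaving out control 1 moved the unmatched difference against gene-body sites from -0.098 to -0.040 and leaving out control 2 moved it to -0.15. Against sites outside genes the same omissions gave -0.040 and -0.15. These comparisons thus gave no single direction for the difference between gene ends and other places.

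**Figure D4:**
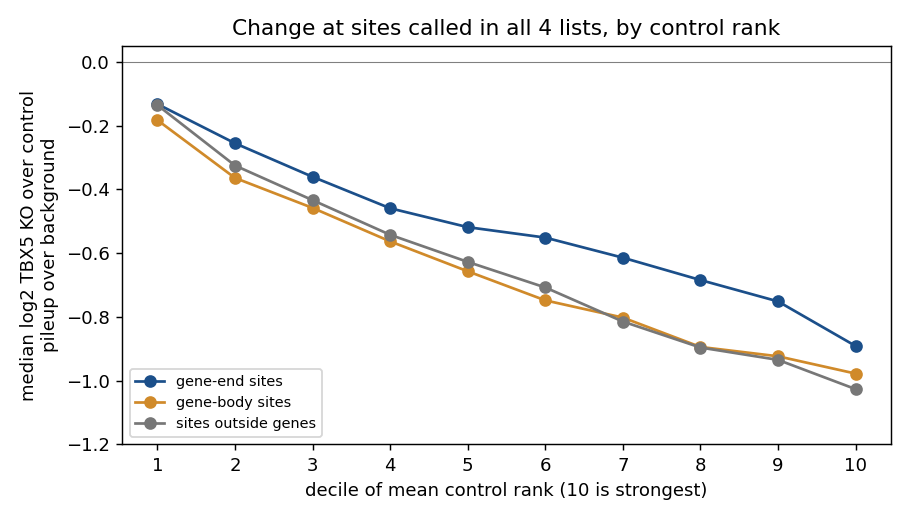
Median log2 ratio of TBX5 KO to control pileup over background (y axis) in deciles of mean control rank (x axis, 10 is strongest) at gene-end sites, gene-body sites and sites outside genes called in all 4 lists. All 3 lines fall with rank, and from decile 2 on the line of gene-end sites lies above both others.

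The strongest gene-end sites lay nearest to gene starts. The 8 sites with the highest mean rank lay nearest to Mms19, a factor of iron-sulphur protein assembly, Hjurp, the chaperone that deposits the centromeric histone, Pkd1, the polycystin-1 receptor, Tomm40, the pore of mitochondrial protein import, LOC114841036 (a site shared with Fkbp2, Ppp1r14b and Vegfb), Tcam1 (shared with Smarcd2, a subunit of BAF remodelling complexes), Phtf2 and Ubxn6, a cofactor of the p97 ATPase. The summits of Pkd1 lay at 24549901 to 24549920, inside the gene, whose start is at 24548689. At Hjurp (chr1:88276801-88278519) the pileup was 626 and 548 fragments in the controls and 387 and 467 in the TBX5 KO libraries. Over genome background this was 61.9, 53.3, 36.2 and 34.8, and no library of one group reached the other. The local background at Hjurp was 6.65, 7.61, 6.40 and 5.99 times the genome background. The authors' fold over it was 9.18, 6.93, 5.59 and 5.76, beside medians of 7.25, 5.60, 4.63 and 4.86 at gene-end sites. At Mms19 (chr19:41980243-41984122), whose site is shared with Ubtd1 on the other strand, the values over genome background were 50.1, 37.6, 21.1 and 22.6. At Phtf2 (chr5:20880429-20883541), whose site also holds the start of Tmem60, they were 35.9, 35.6, 12.9 and 14.5, a log2 ratio of -1.39. That was the lowest ratio of the 8, and the other 7 lay between -0.69 and -1.09.

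Of the 5 named sites of lowest ratio, 4 lay nearest to far ends of genes. Named sites at the extremes were taken from the 9351 gene-end sites with a −log10 q of at least 5 in every list. At Ndufa10, which encodes a subunit of respiratory complex I, the site at the far end (chr1:92435945-92440081) had 156 and 152 fragments in the controls (95% exact Poisson intervals 132 to 182 and 129 to 178) and 38 and 49 in the TBX5 KO libraries (26.9 to 52.2 and 36.3 to 64.8). The control intervals do not meet those of the TBX5 KO libraries, and over genome background the values were 15.4, 14.8, 3.56 and 3.65, a log2 ratio of -2.07. Intervals cover counting error only, in fragments not divided by genome background. The site was chosen for its low ratio in these same counts, so the gap between intervals is no test. The summits of this far-end site lay at 92437888 to 92438131, beyond the gene end at 92439486. The start of Ndufa10 had a gene-end site of its own, with 7.91, 7.79, 4.30 and 5.82 and a ratio of -0.65. In this gene the far-end site thus stood above that of the start in both controls and below it in both TBX5 KO libraries.

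Kcnj5 codes for a potassium channel subunit through which acetylcholine slows the atria. Its far-end site (chr9:32310947-32315255) had 183 and 185 fragments in the controls and 57 and 74 in the TBX5 KO libraries, a log2 ratio of -1.73 once divided by genome background, and its width went from 4204 and 3518 bp to 838 and 1070 bp. The far-end site of Cdkal1, a tRNA-modifying enzyme, had 13.2, 12.2, 3.56 and 2.98, a ratio of -1.96. That of Entpd6, a nucleotide hydrolase, had 10.7, 10.3, 3.56 and 3.28, a ratio of -1.62. A site of Sh3bgr, of unknown direction, had 9.79, 9.54, 2.99 and 3.21, a ratio of -1.64. These sites and that of Kcnj5 were chosen for low ratios among sites whose groups did not overlap. Lower values in both TBX5 KO libraries were therefore fixed by the choice and are no result. Summits of Cdkal1 lay at 29190720 to 29190774, beyond the gene end at 29191746. At Entpd6 the control summits lay at 150773007 and 150772955 and the TBX5 KO summits at 150772245 and 150770922. Its ratio thus compares different positions in the merged site. Among the 200 gene-end sites of lowest ratio, 28 of the 168 of known direction were at far ends only (16.7%), against 532 of 7533 (7.06%) of all 9351 sites. The 200 sites of highest ratio had 27 of 152 (17.8%), so far ends were frequent at both extremes. Sites with starts on both strands made up 14.9% of the lowest, 3.95% of the highest and 10.99% of all such sites of known direction.

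Few gene-end sites were higher in the TBX5 KO libraries, and all of those named were weak. Of the 9351 sites above, both TBX5 KO libraries lay above both controls at 12. Without the limit on q this was 28 of 10657 gene-end sites (0.263%), beside 0.705% of all 36287 sites called in all 4 lists. The share over other places was not computed under that limit. At Pld6, a mitochondrial phospholipase (chr11:59787118-59787892, at the start), the pileup was 35 and 31 fragments in the controls (24.4 to 48.7 and 21.1 to 44.0) and 43 and 51 in the TBX5 KO libraries (31.1 to 57.9 and 38.0 to 67.1). These intervals overlap, and over genome background the values were 3.46, 3.02, 4.02 and 3.80, a log2 ratio of 0.28. Wdr66 had 3.86, 3.80, 4.49 and 4.40, Ctif, a cap-binding translation factor, 3.76, 4.19, 4.21 and 4.85, and A4galt, a glycosyltransferase, 3.76, 3.70, 4.12 and 4.33. The ratios of these 4 genes lay between 0.18 and 0.28.

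Gene lists are given by role, each read against 53.8% of all autosomal protein-coding genes having a gene-end site. Where a gene had several such sites, the one of highest mean rank was used, and over all 11123 genes its median log2 ratio was -0.72 with 94.1% of genes lower in both TBX5 KO libraries. NuRD itself was covered at 12 of 14 genes, all 12 lower in both TBX5 KO libraries, with a median ratio of -0.65. Mbd3, the methyl-CpG-binding-domain subunit, had 32.8, 30.0, 13.9 and 14.2 and a ratio of -1.15. Hdac1, a deacetylase of the complex, had 20.1, 16.8, 12.2 and 11.3 and a ratio of -0.65. Chd4 shares its gene-end site with Nop2, with 8.21, 7.69, 5.24 and 5.22, and the groups did not overlap in this unit. By the authors' fold over local background they did, with 4.52, 5.02, 4.30 and 4.93. A second gene-end site of Chd4 was left out for a control peak of 7690 bp.

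Housekeeping lists were covered almost completely. A gene-end site was present at 30 of 31 proteasome genes, 69 of 73 ribosomal protein genes, 24 of 26 Mediator genes, 11 of 12 genes of RNA polymerase II and 55 of 63 of the respiratory chain. Both TBX5 KO libraries were lower at all of them apart from 1 respiratory-chain gene, beside 94.1% of all genes with a gene-end site. The medians of the log2 ratio were -0.80, -0.79, -0.84, -0.79 and -0.86, beside -0.72 over all genes. Examples are Psmd8, a lid subunit of the proteasome (20.7, 17.1, 10.4 and 10.7), Polr2e, a subunit shared by the RNA polymerases (27.8, 25.6, 13.9 and 12.1), and Ndufs8, a complex I subunit (26.7, 24.4, 12.6 and 12.1). By pileup over genome background, the lowest control lay above the highest TBX5 KO library in each. By the authors' fold over local background this held at Polr2e only. Psmd8 then had 11.6 and 8.57 in the controls against 8.94 and 10.1, and Ndufs8 17.4 and 10.09 against 10.12 and 7.84.

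**Figure D5:**
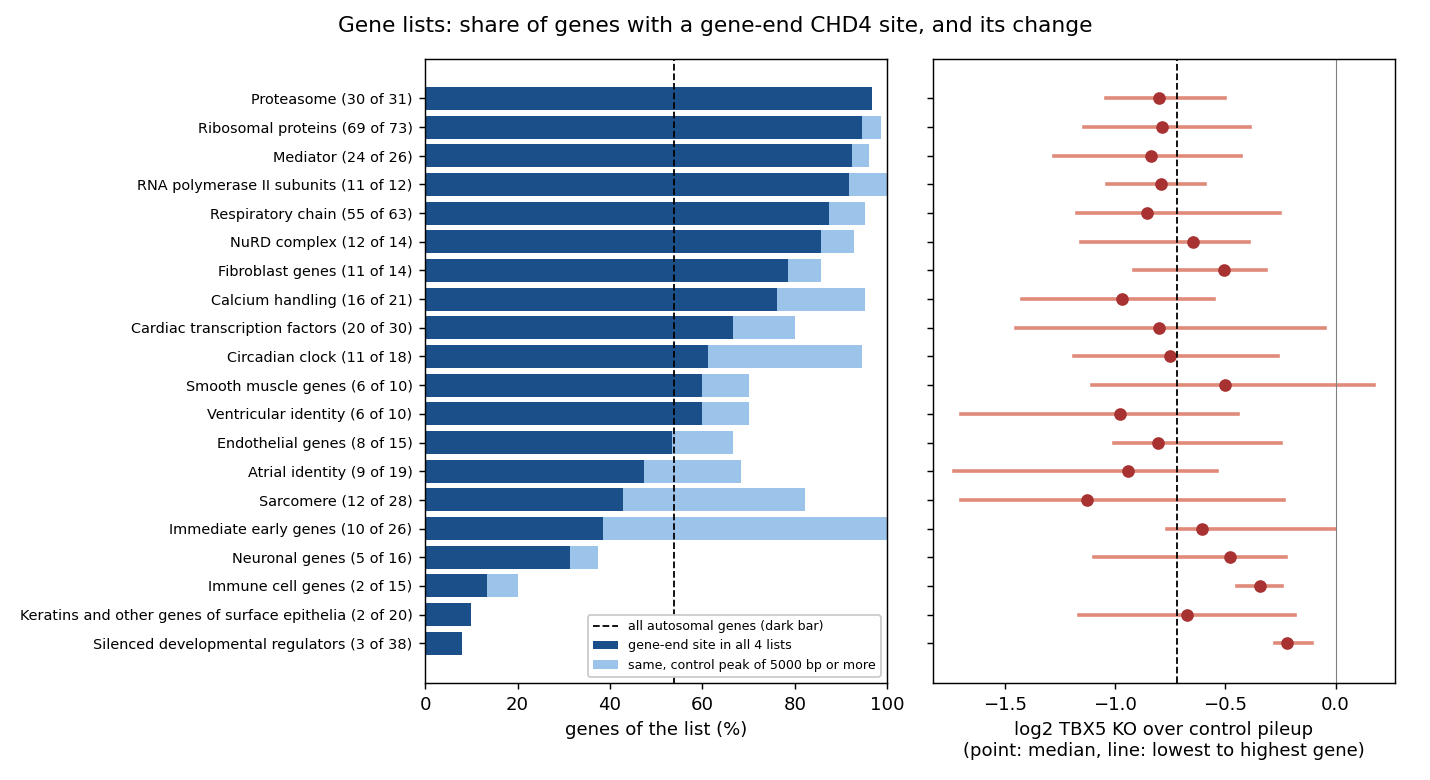
Left, the share of genes of each list (%) with a gene-end CHD4 site (dark) or with a site in all 4 lists that has a control peak of 5000 bp or more (light), with the share over all autosomal protein-coding genes as a dashed line; right, the median log2 ratio of TBX5 KO to control pileup at the gene-end sites of each list (point) and its lowest and highest gene (line), with the median over all genes dashed. Coverage runs from 30 of 31 proteasome genes to 3 of 38 silenced developmental regulators, and the sarcomere list has the lowest median, -1.13.

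Immediate early genes, which are switched on rapidly by a stimulus, often carried broad CHD4 peaks in the controls. All 26 immediate early genes had a site called in 4 lists, yet only 10 were gene-end sites by the width limit and 16 had a control peak of 5000 bp or more, a class that holds 684 of all 20665 genes. Fosb, a subunit of the AP-1 factor, had 13.3, 12.8, 7.30 and 8.13, and Egr2, a zinc-finger factor, 13.4, 11.5, 7.86 and 7.16. The median ratio of the 10 was -0.61. Of 18 circadian clock genes, 11 had a gene-end site and 6 a broad one. Nr1d2, a repressor of the clock loop, stood out in level with 33.3, 29.0, 14.0 and 13.3.

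Sarcomere genes had, under the width limit, a smaller share of gene-end sites than all genes, and the lowest median ratio of the 20 lists. Of 28 such genes, 11 had a site in 4 lists with a broad control peak, a class that holds 684 of all 20665 genes. The smaller share thus depends on the width limit. A gene-end site was present at 12 (42.9%), 2 genes were called in 1 to 3 lists and 3 had no site. All 12 were lower in both TBX5 KO libraries, as were 94.1% of all genes with a gene-end site, and their median ratio was -1.13. At Myl2, the regulatory light chain of ventricular myosin (chr5:122092223-122095377, at the start), the values were 8.21, 9.44, 2.81 and 2.61, a ratio of -1.70. At Ttn, which encodes titin, they were 6.53, 7.79, 3.37 and 3.21, at Mybpc3, myosin-binding protein C, 9.20, 6.81, 3.09 and 3.65, and at Csrp3, a Z-disc protein, 9.49, 7.50, 3.74 and 3.28. Tnnc1, the calcium-binding troponin, was the least changed, with a ratio of -0.23. The site given for Myom1 lies nearest to the start of Myl12a. Since the ratio went with control rank, each ratio was also set against the median of gene-end sites in the same decile of control rank. By that measure 11 of the 12 sarcomere genes were below 0, with a median of -0.48. Over all genes 5480 of 11123 were below 0, with a median of 0.0027. Ttn, Mybpc3 and Csrp3 were chosen after their values were seen.

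Calcium handling followed the same direction. Gene-end sites were present at 16 of 21 genes, all lower in both TBX5 KO libraries (94.1% over all genes). Their median ratio was -0.97, and -0.17 against sites of equal rank. Ryr2, the calcium release channel of the sarcoplasmic reticulum (chr13:12103046-12107691, a site over the start), had 8.60 and 8.08 in the controls and 3.27 and 2.98 in the TBX5 KO libraries, a ratio of -1.42, with peak widths of 4387 and 4576 bp against 346 and 447 bp. The summit of control 2 lay at position 12104510, inside the gene, while the other 3 lay between 12106920 and 12107034, around the start at 12106945, so the value of control 2 is not one at the start. Pln, the inhibitor of the calcium pump, chosen after its values were seen, had 7.91, 9.44, 3.09 and 3.36 and a ratio of -1.42. Calm3, a calmodulin gene, was at the level of housekeeping starts with 29.5, 25.4, 14.1 and 16.6, a ratio of -0.84 and 0.053 against sites of equal rank.

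Atrial identity genes had 9 gene-end sites among 19 genes, 4 sites with broad control peaks and 5 genes called in 1 to 3 lists. All 9 were lower (94.1% over all genes), with a median ratio of -0.94 and, against sites of equal rank, of -0.40. Besides Kcnj5, the list holds Pam, an enzyme of peptide amidation that is abundant in atrial granules, with 17.6, 15.9, 8.23 and 9.17. Tbx5 itself had a gene-end site at chr5:119882712-119887281, with 5.44 and 5.06 in the controls and 2.71 and 2.83 in the TBX5 KO libraries, a ratio of -0.92. At this site both control values were below the median of gene-end sites. A second site at an end of Tbx5, left out for a control peak of 6479 bp, had 7.91 and 9.54 in the controls and 4.02 and 3.73 in the TBX5 KO libraries. The peak lists do not show whether the floxed part of Tbx5 was excised, so they do not check the labels. The ventricular list had 6 of 10, with a median of -0.98 and, against sites of equal rank, of -0.33, with 5 of the 6 below 0. Of the best-known atrial genes, Myl7, Sln and Gata4 were left out for control peaks of 9057, 5572 and 13448 bp, and Nppa, Nppb, Bmp10, Gja5 and Nkx2-5 had no gene-end site in all 4 lists. Myl7 and Sln, a myosin light chain and a calcium pump regulator of atrial muscle, thus carried CHD4 in every library, but no expression was measured that would check the tissue.

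Of the cardiac transcription factors, 20 of 30 had a gene-end site, 19 of them lower in both TBX5 KO libraries. Over all genes with a gene-end site that share was 94.1%, and the counts of lower genes below are read beside it. The median ratio of these transcription factors was -0.80 and, against sites of equal rank, -0.15, with 14 of the 20 below 0. Hand2, a basic helix-loop-helix factor, had a site over its far end, with 14.8, 14.6, 6.18 and 6.86. Its summits lay at 57328681 to 57328985, downstream of that end at 57324517. Tead1, the DNA-binding partner of YAP, had 14.1, 12.0, 6.92 and 7.38. In both genes the groups were apart by pileup over genome background. By the authors' fold over local background they overlapped, with 13.6, 6.14, 5.73 and 6.45 at Hand2 and 12.3, 6.50, 6.42 and 6.83 at Tead1. Lists of other cell types of the atrium were covered to different degrees. Fibroblast genes had 11 of 14, all lower, with a median ratio of -0.51 and, against sites of equal rank, of -0.060. Endothelial genes had 8 of 15, all lower, with a median of -0.81. Against sites of equal rank their median was -0.16, with 7 of the 8 below 0, beside 5480 of all 11123 genes. Among 6 of 10 smooth muscle genes, 3 were lower in both TBX5 KO libraries and none was higher in both. Their median was -0.50. At Gsn, the actin-severing gelsolin of the fibroblast list, the values were 7.71, 9.64, 5.80 and 6.41, and at Kdr, the VEGF receptor of endothelium, 9.99, 9.64, 5.71 and 4.18, at the far end.

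Lists of genes typical of other tissues were mostly without a gene-end site. Silenced developmental regulators had 3 of 38 and no site at 27, genes of keratins and surface epithelia 2 of 20 and no site at 17, immune cell genes 2 of 15 and neuronal genes 5 of 16, in each case fewer than the 53.8% of all genes. Map2, a neuronal microtubule protein, had 6.92, 6.23, 5.89 and 5.37. Its groups did not overlap, and its ratio of -0.22 was nearer to 0 than the -0.72 of all genes.

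Gene-end sites were spread over all 19 autosomes. The share of protein-coding genes with one ranged from 42.3% on chromosome 7 to 62.3% on chromosome 8, while the median log2 ratio stayed between -0.68 and -0.72 on every chromosome. At the edges of the choosing thresholds, G0s2 and Trim7 lay just inside at 998 bp from a gene end, and Lifr and Obsl1 just outside at 1001 and 1003 bp. Mmp23 and Tmem94 lay just inside the width limit with control peaks of 4998 and 4994 bp, and Usp47 and Tagln2 just outside with 5000 and 5001 bp. Nxn and Zfp551 were the weakest kept, each with a lowest −log10 q of 1.31.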

How the data were processed

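Atrial CHD4 ChIP-seq was represented by 1 deposited peak list per ChIP library, 4 in all, and the 4 input libraries were not analysed on their own. MACS2, DiffBind and mm10 are named in the submitters' processing notes, without versions, and neither the aligner nor the call settings is given in the sources used here. The authors' lists hold, per peak, a score, a fold (the ratio of pileup to local background), −log10 p and −log10 q, and the lowest deposited −log10 q was 1.30 to 1.31. The deposited score was not used beyond a check that it is the −log10 q.

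Total reads per library are unknown. Pileup and local background were recovered by solving the authors' fold and −log10 p-value together under a Poisson model with 1 added to pileup and background. Recovered pileups were whole to within 0.05 for 99.9986% to 100% of peaks. On simulated peaks, 5000 per library, the pileup was recovered for 100%. The lowest recovered background was taken as the genome background. Sites were merged at 1 bp, and the strongest peak stood for a site. Gene ends and promoters came from RefSeq tables on GRCm38.p6, with direction known for 17492 of 21887 protein-coding genes.

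Libraries were compared by two-sided exact permutation, 2 against 2. Named genes were the 8 of highest mean rank, the 5 lowest and 5 highest ratios whose groups did not overlap, up to 2 genes of each of 20 lists, 12 fixed genes and the sites at the thresholds. Some genes that this rule names are not reported here. Members and lists were chosen with earlier results of these data known. Python 3.11.15, numpy 2.4.6, pandas 2.3.3, scipy 1.17.1 and matplotlib 3.10.9 were used. Alternatives changed the call threshold, the overlap, list length, window, width limit, libraries, scaling and matching.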

Additional observations from a re-analysis of the deposited data

How the results depend on the processing

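The number of gene-end sites stayed between 9333 and 12368 over 11 alternatives, 10932 to 11298 of these without 1 library each. The difference of library medians at gene-end sites, TBX5 KO minus control, was -0.70 on the log2 scale and -0.78 to -0.60 without 1 library each. It was -0.43 with the authors' fold over local background, -0.47 with unscaled pileup, -0.056 relative to the median of all sites called in 4 lists, and 0.70 with the groups exchanged. The last 2 scalings, matching on TBX5 KO rank, mean rank and control pileup, and the sets without RefSeq starts were chosen after seeing the data.

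The difference between gene-end and other sites, -0.098 for gene-body sites and -0.098 for sites outside genes, was -0.059 and -0.073 at a −log10 q of at least 3, -0.021 and -0.051 at 5 (exact p = 1 and 0.667), and -0.031 and -0.028 with lists of equal length (both exact p = 1). With the other overlap, windows and width limit it lay between -0.098 and -0.076, and it was -0.15 to -0.040 against both places without 1 library each. Its sign was reversed in the following, gene-body sites first: 0.098 and 0.098 with the groups exchanged, 0.038 and 0.040 with the authors' fold, 0.14 and 0.16 matched on control rank, 0.018 and 0.036 on TBX5 KO rank, 0.075 and 0.088 on mean rank, 0.14 and 0.15 on control pileup, and 0.19 and 0.17 on control rank without sites near a RefSeq start. The cause was not tested.

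The share of sites nearest to a start, 87.5%, was 89.0% at a −log10 q of 3, 91.7% at 5, 89.1% with lists of equal length, 89.5% within 500 bp, 82.6% within 2500 bp and 85.3% to 87.3% without 1 library each. With the replicate number as a block the 3 differences stayed at -0.70, -0.098 and -0.098, with a smallest exact p of 0.5. Across gene-end sites, the difference of replicate 1 minus 2 in control did not go with that in TBX5 KO (r = -0.032). A shift shared by all sites would leave this r unchanged, so whether the numbers pair libraries is not settled. Low pileups, such as 30 and 35 fragments at Myl2 in the TBX5 KO libraries, carry wide counting intervals, and the number of reads per library is unknown.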
